A study of Drosophila melanogaster with 6 samples.

Results

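MeDIP-seq peaks were examined at 10 Drosophila melanogaster genes that encode RNA-binding regulators of splicing and translation: bru1, bru2, bru3, mbl, Rbfox1, pum, shep, Syp, mub and ps. The genes were taken from a given list, and a peak was assigned to a gene when it overlapped the RefSeq gene span (dm6) or 1 kb on either side by at least 1 bp. The 10 genes are among 17807 placed on the chromosome arms, and they took 218 of the 13754 peaks of the series. MeDIP-seq sequences sheared genomic DNA that an antibody against methylated cytosine has pulled down, and peaks mark places where that DNA exceeds an input library. The lead group held 3 libraries labelled F3-800um and the control group 3 libraries labelled F3-0um. All 6 came from adult heads of wild-type (WT) flies and carried the same F3 label. The labels do not say which generation met the metal, how long exposure lasted, or whether replicates came from separate flies, so the p-values below measure only the spread between these libraries, which may be technical. The study set out to find differences in methylated DNA between exposed and unexposed flies.

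RNA-binding proteins of this kind recognise short motifs in transcripts and set which exons are kept, how long an mRNA lasts, or when it is translated. Neurons depend on them to make synapse-specific isoforms and to hold mRNAs silent until they are needed at terminals or dendrites. The 3 Bruno proteins belong to the CELF family. Muscleblind (mbl), Rbfox1 and Pasilla (ps, the fly relative of the mammalian NOVA proteins) are splicing regulators, with Rbfox1 also acting on translation. Mushroom-body expressed (mub) is a KH-domain protein that binds poly(C) RNA, Alan shepard (shep) acts in neuronal remodelling, and Pumilio (pum) and Syncrip (Syp) act mainly on mRNA stability, localisation and translation. Fly DNA carries very little 5-methylcytosine, and antibody enrichment is known to recover repeats as well. The sequence of the regions was not used here, and their repeat content was not tested. Heads hold many cell types, so a peak does not tell in which cells, or in what share of them, the DNA was recovered. Peak lists of genomic DNA carry no expression markers against which the tissue label could be checked.

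Peaks were found at 9 of the 10 genes in every lead and every control library, and bru2 had a peak in none of the 6. Among all 17807 genes, 12.2% had a peak in at least 1 library and 3.69% in all 6. The 10 genes are long (median 117.4 kb, shortest 37.6 kb for ps), and long genes offer more room for a peak. Of the 517 genes at least as long as ps, 80.9% had a peak in at least 1 library and 39.5% in all 6. That floor is the length of the shortest member, so this background is not matched to the members' lengths. Of the 300 genes at least as long as bru2 (53.3 kb), 14% had no peak in any library. The members were also chosen with earlier results of these data known. Peaks of the 9 genes merged into 70 regions, of which 15 held a peak in all 6 libraries. None was lead-only, with peaks in the 3 lead libraries and in 0 control libraries, and none was control-only, with the opposite pattern. Over the whole series, 19.6% of the 4538 regions held a peak in all 6 libraries, 0.441% were lead-only and 0.154% control-only. The 15 shared regions make 21.4% of the 70, close to that background.

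Almost all of the members' regions lay inside the genes. All but 2 of the 70 regions fell wholly within the annotated span. Those 2 crossed a gene end, and none lay in the flanking 1 kb. The flanks are a small part of the windows, beside a summed gene length of 1221.6 kb, so an empty flank says little about placement. Of the 70, 17 had their midpoint within 10 kb of the nearer gene end. These shares were not counted over the series. Only 2 regions, both in pum, overlapped another annotated gene, the long noncoding RNA lncRNA:CR45196. The gene table used gives no strand and no exons, so positions are given from the end with the lower coordinate and exonic or intronic placement was not analysed here.

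**Figure D1:**
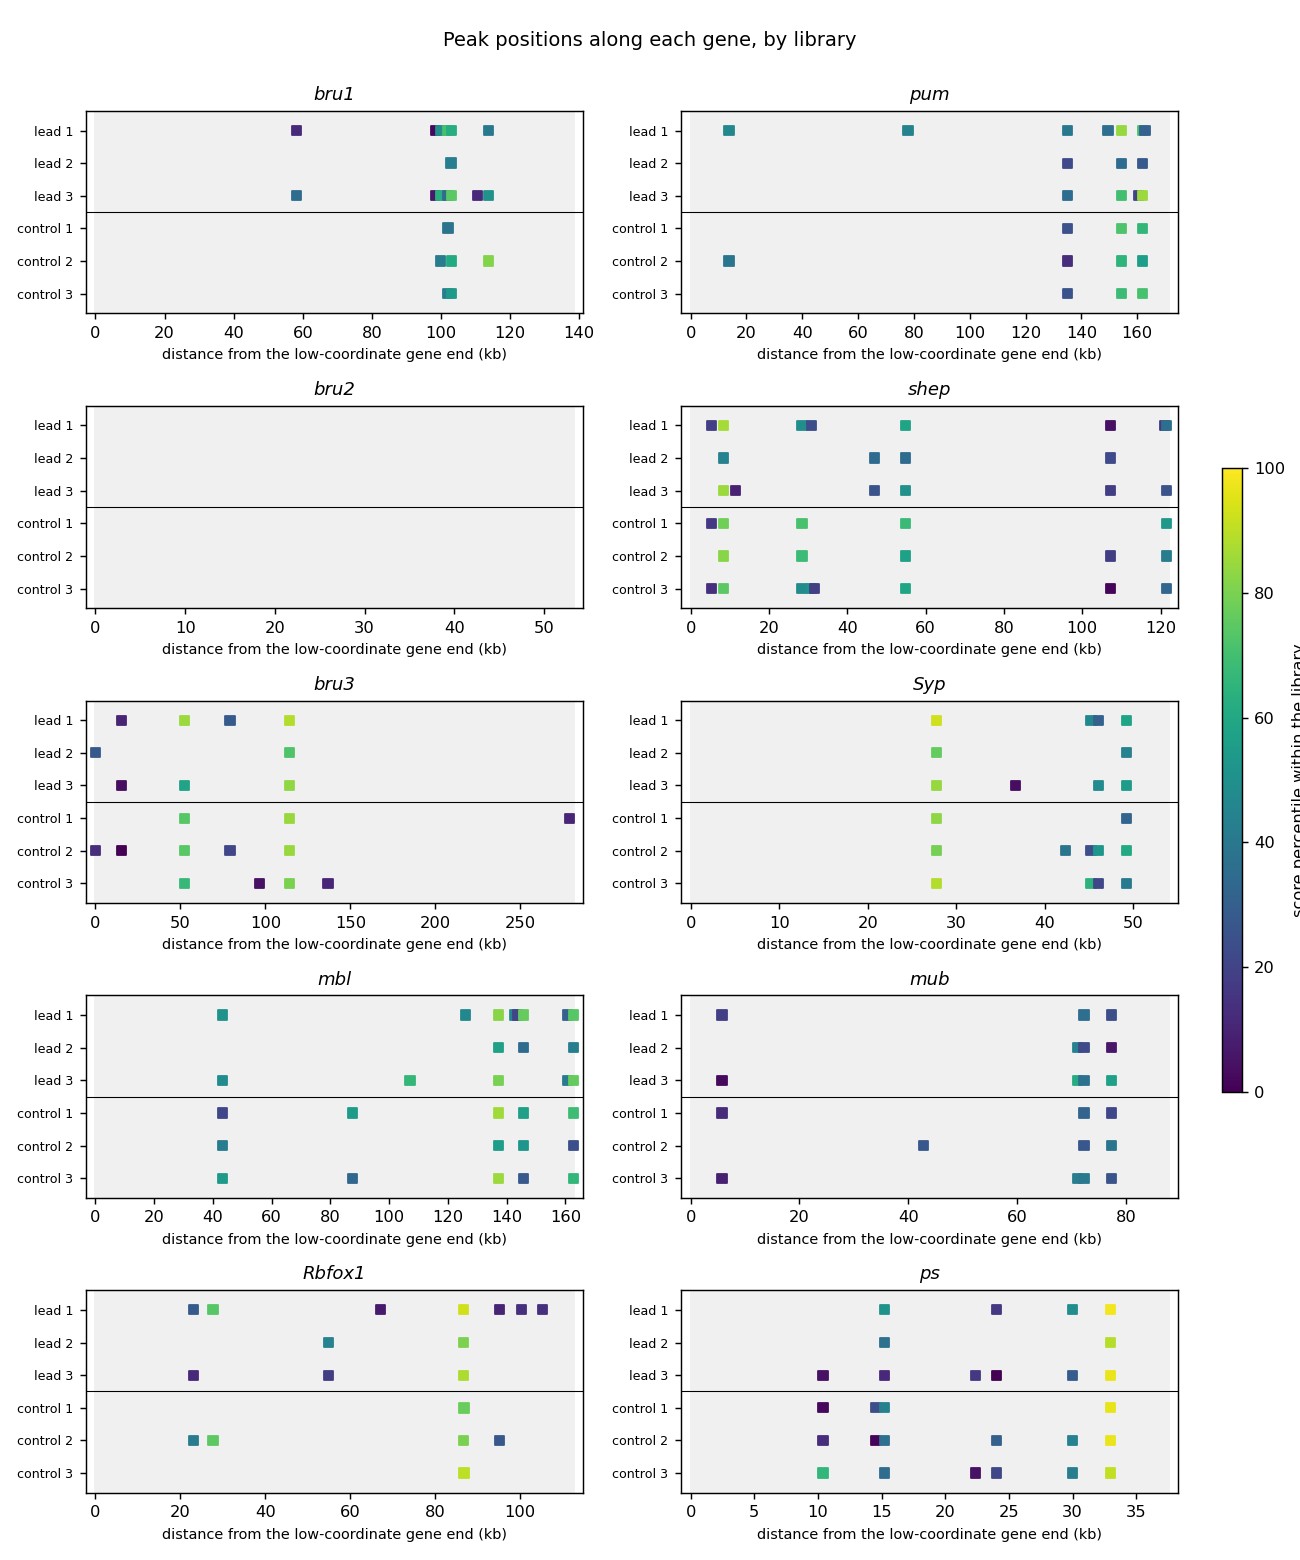
Each square is a peak region, placed by the distance of its midpoint from the low-coordinate end of the gene (kb), with lead libraries above the line and control libraries below it; colour gives the score percentile within the library and grey the gene span. Columns of squares across all 6 libraries recur in 8 of the 10 genes, bru1 has a cluster near 100 kb with no region in all 6, and bru2 is empty.

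The number of peaks in the 10 genes was 51, 22 and 42 in lead replicates 1, 2 and 3, against 27, 39 and 37 in control replicates 1, 2 and 3. The lead values spanned the control values, from the lowest to the highest of the 6. Lead libraries averaged 38.3 ± 14.8 peaks, against 34.3 ± 6.43 for control libraries (SD, n = 3 each), and the difference of 4 did not exceed the SD of either group. It turned to -2.33 without lead replicate 1, and it was 12.2 without lead replicate 2, 2.17 without lead replicate 3, and 0.333 and 6.33 without control replicates 1 and 2. Covered length was 17.0, 6.53 and 13.5 kb in lead replicates 1, 2 and 3, against 9.56, 11.4 and 11.8 kb in control replicates 1, 2 and 3. It averaged 12.4 ± 5.34 kb for lead, against 10.9 ± 1.22 kb for control libraries (SD, n = 3 each). The difference of 1.42 kb turned to -0.906 kb without lead replicate 1, and it was 4.34 kb without lead replicate 2, 0.833 kb without lead replicate 3 and 0.728 kb without control replicate 1. No p is given for sums over the 10 genes, because they were chosen with earlier results of these data known.

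The order of the libraries by peaks in the 10 genes was the same as their order by all peaks. The lists held 3522, 1379 and 2536 peaks in lead replicates 1, 2 and 3, against 1746, 2414 and 2157 in control replicates 1, 2 and 3. Read depth is not recorded in these lists, so whether depth set these totals was not tested, and a missing peak does not show unmethylated DNA. As a share of the library's peaks, the 10 genes took 1.45% in lead replicate 1 (95% Wilson interval 1.10 to 1.90), 1.60% in lead replicate 2 (1.06 to 2.40) and 1.66% in lead replicate 3 (1.23 to 2.23). The control replicates gave 1.55% (1.06 to 2.24), 1.62% (1.18 to 2.20) and 1.72% (1.25 to 2.36). These intervals cover counting error only, and all 6 overlap. The mean share was 1.57% ± 0.107 for lead, against 1.63% ± 0.0849 for control libraries (SD, n = 3 each), a difference of -0.0593 percentage points, within the spread of both groups. It was -1.6e-05 without lead replicate 1, -0.104 without lead replicate 3, -0.0989 without control replicate 1 and -0.0145 without control replicate 3. None of the 10 genes lies on X, where lead replicate 1 had 32.1% of its peaks and the other 5 libraries 21.6% to 24.5%. Of the peaks outside X, the 10 genes took 2.13%, 2.04% and 2.11% in lead replicates 1, 2 and 3, against 2.02%, 2.09% and 2.27% in control replicates 1, 2 and 3, a difference of -0.0302 points.

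**Figure D2:**
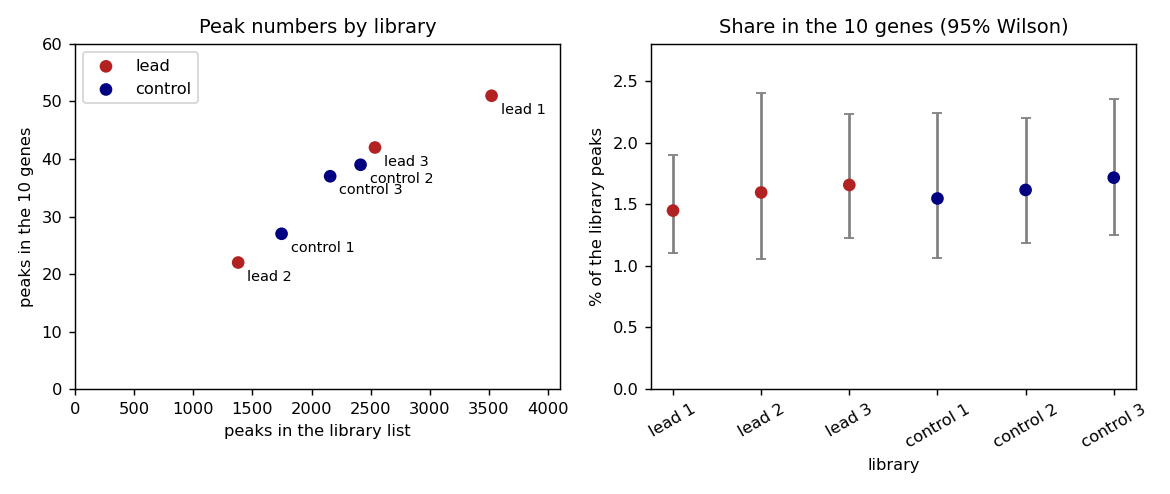
Left, peaks in the 10 genes against all peaks of the same library, 1 point per library. Right, the share of each library's peaks that lay in the 10 genes, with 95% Wilson intervals: counts ran between 22 and 51, while shares stayed between 1.45% and 1.72%.

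Gene by gene, peak numbers did not separate the groups. A lead minus control difference in mean peak number was tested by exact permutation of the 6 library labels (two-sided) for each of 2173 genes with a peak, with Benjamini-Hochberg adjustment over all of them. Across the 9 members tested, exact p ran from 0.4 to 1 and every adjusted p was 1. With 3 libraries against 3, the smallest p this test can give is 0.1, so no gene could pass 0.05, and 0 of 2173 had an unadjusted p under 0.05. The groups overlapped for all 9 members, where over all genes 0.736% had lead numbers wholly above and 0.046% wholly below the control numbers. The mean was higher in lead libraries for 4 members (bru1, Rbfox1, pum and mbl), lower for 3 (ps, bru3 and Syp) and equal for 2 (shep and mub). Over the 2173 genes it was higher for 1044 and lower for 456, and the median difference was 0 for the members and for all genes.

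**Figure D3:**
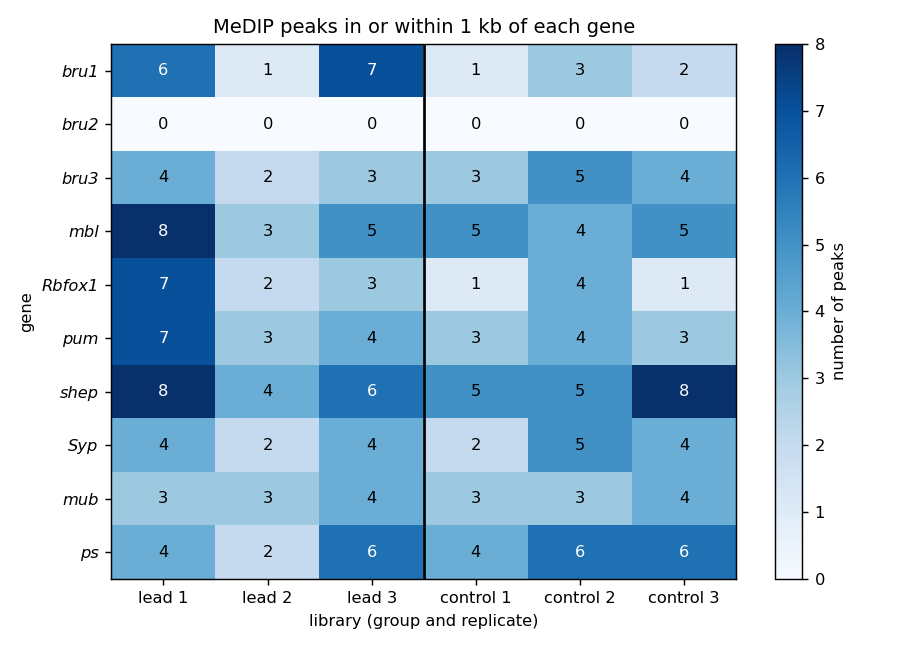
Number of peaks in or within 1 kb of each gene (rows) in each library (columns), with lead replicates left of the line and control replicates right of it. Numbers ran from 0 in all libraries for bru2 to 8 for mbl and shep in lead replicate 1 and for shep in control replicate 3, and the groups overlapped in every row with peaks.

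The mbl gene (2R, 17216549 to 17379376) encodes Muscleblind, a splicing regulator of muscle and photoreceptors whose own locus yields abundant circular RNA in fly heads. It had 8, 3 and 5 peaks in lead replicates 1, 2 and 3, against 5, 4 and 5 in control replicates 1, 2 and 3. Lead replicate 1 was the highest and lead replicate 2 the lowest, so the lead values enclosed the control values. The difference of 0.667 (exact permutation p = 0.9) turned to -0.667 without lead replicate 1, and was 1.83 without lead replicate 2 and 0.333 without control replicate 2. Of its 10 regions, 2 were in all 6 libraries. The better scored of these, 17353621 to 17353944, lay at 82.2, 57.1 and 79.5 in lead replicates 1, 2 and 3 and at 85.7, 55.2 and 84.9 in control replicates 1, 2 and 3 on the score percentile. That percentile is the share of a library's peaks that score at or below the peak, with ties averaged. The score is the authors' own, and it ranks peaks within a list only. The lists held 1379 to 3522 peaks, so the same rank gives a different percentile in a list of another length. The other, at 17379062 to 17379413, crossed the high-coordinate end of the gene, with widths of 311 to 334 bp and percentiles of 24.0 to 76.2.

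Away from these, mbl had 2 regions that missed a single lead library. The region at 17259429 to 17260347 had no peak in lead replicate 2, and its peaks ran from 218 bp in lead replicate 3 to 919 bp in lead replicate 1, the widest peak in any of the 10 genes (percentiles 21.1 to 54.1). The region at 17362010 to 17362348 had none in lead replicate 3 (257 to 330 bp, percentiles 27.7 to 76.5). At 17303966 to 17304196 peaks of 230 and 227 bp were found in control replicates 1 and 3 and in no lead library (percentiles 54.9 and 32.5), while at 17377070 to 17377331 peaks of 235 and 260 bp were found in lead replicates 1 and 3 and in no control library (30.5 and 40.7). Single-library regions were all in lead libraries. Lead replicate 1 alone had 227 bp at 17342502 to 17342728 (46.8), 262 bp at 17359191 to 17359452 (46.8) and 225 bp at 17360151 to 17360375 (21.0), and lead replicate 3 alone had 262 bp at 17323466 to 17323727 (66.3).

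The ps gene (3R, 9417940 to 9455500) is the shortest of the 10 and had the densest peaks, 11.8 per 100 kb and library with the 1 kb flanks counted in the length. It had 4, 2 and 6 peaks in lead replicates 1, 2 and 3, against 4, 6 and 6 in control replicates 1, 2 and 3. Lead replicate 2 was the lowest, and the groups shared the values 4 and 6. The difference of -1.33 (exact permutation p = 0.7) was -0.333 without lead replicate 2, -2.33 without lead replicate 3 and -2 without control replicate 1. With the 1379 best-scored peaks of each library the ps difference was -1.33 (exact permutation p = 0.2). With a score of at least 47, the median over all lists, it was 0. Per 1000 peaks of the library, ps had 1.14, 1.45 and 2.37 in lead and 2.29, 2.49 and 2.78 in control replicates 1, 2 and 3, a difference of -0.869 with groups that still overlapped (exact permutation p = 0.2). Its region at 9450657 to 9451182 had the best scores of any region in the 10 genes. The percentiles there were 98.3, 88.7 and 96.6 in lead replicates 1, 2 and 3 and 96.4, 96.8 and 90.9 in control replicates 1, 2 and 3, and the peaks ranked 62, 155 and 86 from the top in the lead lists and 63, 77 and 194 in the control lists. Widths were 501, 462 and 498 bp in lead and 497, 518 and 504 bp in control replicates 1, 2 and 3. All 6 libraries thus placed a peak of nearly equal width near the top of their lists.

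The other region of ps in all 6 libraries, 9432955 to 9433364, was weaker (241 to 387 bp, percentiles 11.0 to 51.1). Its neighbour 336 bp away, 9432359 to 9432618, had peaks in control replicates 1 and 2 alone, of 231 and 253 bp (23.1 and 0.932). The region at 9428086 to 9428587 was found in 1 lead and 3 control libraries. It measured 436 bp in lead replicate 3, against 395, 362 and 227 bp in control replicates 1, 2 and 3, at percentiles of 4.57 in lead and 2.15, 12.6 and 65.7 in control libraries. Apart from control replicate 3, these scores were near the bottom of the lists. The remaining regions were split evenly between the groups. Lead replicate 3 and control replicate 3 shared 9440149 to 9440462 (257 and 239 bp, percentiles 15.6 and 4.54), and lead replicates 1 and 3 with control replicates 2 and 3 shared both 9441701 to 9442188 (254 to 488 bp, 0.256 to 30.1) and 9447798 to 9448075 (204 to 270 bp, 28.2 to 49.0).

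Rbfox1 (3L, 10481412 to 10594012) had 7, 2 and 3 peaks in lead replicates 1, 2 and 3, against 1, 4 and 1 in control replicates 1, 2 and 3. Lead replicate 1 stood highest, and control replicate 2 was above the other 2 lead libraries. The difference of 2 peaks (exact permutation p = 0.5) was 0.5 without lead replicate 1 and 3 without lead replicate 2 or without control replicate 2. Per 1000 peaks of the library, Rbfox1 had 1.99, 1.45 and 1.18 in lead replicates 1, 2 and 3, against 0.573, 1.66 and 0.464 in control replicates 1, 2 and 3, and the groups still overlapped (exact permutation p = 0.3). A single region, 10567919 to 10568205, was in all 6 libraries. It measured 279, 246 and 282 bp in lead and 246, 262 and 269 bp in control replicates 1, 2 and 3, with percentiles of 92.8, 80.5 and 87.7 in lead and 77.1, 80.0 and 90.0 in control replicates 1, 2 and 3. From the top of the lists these peaks ranked 252, 267 and 308 in lead replicates 1, 2 and 3. The ranks in control replicates 1, 2 and 3 were 396, 473 and 213. Control replicates 1 and 3 had no other peak in the gene.

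The extra Rbfox1 peaks of lead replicate 1 stood at percentile 28.0 or below in its list, apart from 1. It alone had 268 bp at 10548287 to 10548554 (percentile 6.89), 228 bp at 10581596 to 10581823 and 241 bp at 10586547 to 10586787 (both 13.8). It shared 3 regions with control replicate 2: 10508979 to 10509196, with 218 and 212 bp at the high percentiles of 73.6 and 75.2; 10576318 to 10576564, with 247 and 217 bp at 9.97 and 27.1; and 10504283 to 10504518, also in lead replicate 3 (206 to 225 bp, 11.0 to 41.6). Lead replicates 2 and 3 shared 10536225 to 10536459, with 232 and 228 bp at percentiles of 44.3 and 17.9 and no peak in a control library or in lead replicate 1.

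Among the Bruno genes, bru1 (2L, 12175004 to 12313438), which encodes a translational repressor of the oocyte that also directs splicing in flight muscle, showed the largest difference of the 10 in mean peak number. It had 6, 1 and 7 peaks in lead replicates 1, 2 and 3, against 1, 3 and 2 in control replicates 1, 2 and 3. Lead replicates 1 and 3 were above every control library, and lead replicate 2 equalled the lowest. The means were 4.67 ± 3.21 for lead, against 2 ± 1 for control libraries (SD, n = 3 each), a difference of 2.67 (exact permutation p = 0.4, adjusted p = 1). It was 4.5 without lead replicate 2 and 1.5 without lead replicate 3. Per 1000 library peaks the values were 1.70, 0.725 and 2.76 in lead and 0.573, 1.24 and 0.927 in control replicates 1, 2 and 3 (exact permutation p = 0.3). With the 1379 best-scored peaks of each library the difference in peak number was 0.333.

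Of the 7 bru1 regions, 6 lay in 15.7 kb from 12273136 to 12288853, and none of the 7 was in all 6 libraries. Other members also had regions close together, such as 5 of 8 in 13.6 kb in pum and 3 of 5 in 6.71 kb in mub. The most shared bru1 region was 12277868 to 12278167. It measured 257, 229 and 242 bp in lead replicates 1, 2 and 3, and 255 and 258 bp in control replicates 2 and 3, with no peak in control replicate 1. Percentiles there were 62.1, 42.2 and 74.6 in lead and 60.8 and 54.1 in those control libraries. It was the 1 bru1 peak of lead replicate 2. The next region 824 bp below it, 12276750 to 12277043, was in lead replicates 1 and 3 and control replicates 1 and 3 (236 to 274 bp, 35.4 to 70.5). Lead replicates 1 and 3 joined control replicate 2 at 12274672 to 12274945 (210 to 274 bp, 41.6 to 63.2) and at 12288559 to 12288853 (209 to 293 bp, 40.5 to 81.5). These lead replicates alone had peaks at 12233052 to 12233339 (217 and 259 bp, 11.9 and 35.4) and at 12273136 to 12273485 (304 and 295 bp, 2.09 and 6.17). Lead replicate 3 alone had 238 bp at 12285536 to 12285773 (11.0).

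The neighbouring bru2 (2L, 12344219 to 12397528), which begins 30.8 kb beyond bru1, had 0 peaks in each of the 6 libraries over 53.3 kb. The nearest regions lay 55.4 kb below it, the last region of bru1, and 59.4 kb above it, at 12456933 to 12457411, found in 1 lead and 0 control libraries. Of the 300 genes at least as long as bru2, 42 (14%) had no peak in any library.

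The bru3 gene (3L, 13521907 to 13803400) is the longest of the 10 at 281.5 kb and, bru2 aside, had the sparsest peaks, 1.23 per 100 kb and library. It had 4, 2 and 3 peaks in lead replicates 1, 2 and 3, against 3, 5 and 4 in control replicates 1, 2 and 3. The groups overlapped and the difference was -1 (exact permutation p = 0.5). It was -0.5 without lead replicate 2 or without control replicate 2, and -1.5 without lead replicate 1 or without control replicate 1. Per 1000 peaks of the library, bru3 had 1.14, 1.45 and 1.18 in lead replicates 1, 2 and 3, against 1.72, 2.07 and 1.85 in control replicates 1, 2 and 3, and on this scale every lead value was below every control value. Lead libraries averaged 1.26 ± 0.170, against 1.88 ± 0.178 for control libraries (SD, n = 3 each; exact permutation p = 0.1, the smallest possible, adjusted p = 1). Over all genes with a peak, 5.89% had all lead values below all control values on this scale and 1.01% all lead values above. When the 1379 best-scored peaks of each library were counted, the bru3 difference was 0.

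The bru3 region at 13635962 to 13636296 was in all 6 libraries. Its peaks measured 281, 252 and 280 bp in lead and 270, 335 and 282 bp in control replicates 1, 2 and 3, at percentiles of 88.4, 72.2 and 83.6 in lead and 84.6, 84.5 and 79.9 in control replicates 1, 2 and 3. A further well scored region, 13573965 to 13574270, lacked a peak in lead replicate 2 alone (232 to 293 bp, 58.1 to 85.0). All other bru3 peaks stood in the lower 30 percent of their lists. They were at 13521859 to 13522209, across the low-coordinate gene end, in lead replicate 2 and control replicate 2 (308 and 280 bp, 27.5 and 12.6); at 13537156 to 13537573 in lead replicates 1 and 3 and control replicate 2 (238 to 392 bp, 0.104 to 9.97); and at 13600958 to 13601232 in lead replicate 1 and control replicate 2 (275 and 199 bp, 28.0 and 20.8). The single-library regions of bru3 were all in control libraries. Control replicate 3 had 232 bp at 13618164 to 13618395 (4.54) and 298 bp at 13658587 to 13658884 (10.7). Control replicate 1 had 252 bp at 13800691 to 13800942 (10.3), which lay 141.8 kb from the nearest other region of bru3.

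The shep gene (3L, 5155821 to 5277944), whose product also limits the activity of gypsy insulators in neurons, had the most peaks of the 10, with 36 in 11 regions. It had 8, 4 and 6 peaks in lead replicates 1, 2 and 3, against 5, 5 and 8 in control replicates 1, 2 and 3. Both groups averaged 6 peaks (SD 2 in lead and 1.73 in control libraries, n = 3 each) and reached the same highest value. Outside the 10 genes, the genes whose 6 peak numbers were nearest to those of shep were CG46320, Rdl and fru, each with a summed absolute difference of 3 peaks over the 6 libraries. CG46320 had 8, 3 and 6 peaks in lead and 4, 5 and 7 in control replicates 1, 2 and 3. Rdl, a GABA receptor subunit, had 9, 4 and 6 peaks in lead and 5, 6 and 7 in control replicates 1, 2 and 3, and fru, the courtship transcription factor, had 8, 4 and 6 in lead and 7, 6 and 8 in control replicates 1, 2 and 3. All 3 had their lowest lead number in lead replicate 2, the library with the fewest peaks.

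In shep, 2 regions were in all 6 libraries. At 5163952 to 5164502 the widths were 540, 489 and 476 bp in lead and 471, 497 and 525 bp in control replicates 1, 2 and 3, with percentiles of 86.7, 44.3 and 84.9 in lead and 78.5, 82.2 and 74.6 in control replicates 1, 2 and 3. Lead replicate 2 was the low value, also by rank from the top (756, against 370 to 539 in the other libraries). At 5210516 to 5210871 the peaks were narrower (235 to 324 bp, 34.4 to 67.7). The region at 5184096 to 5184432 was found in 1 lead and 3 control libraries. It measured 282 bp in lead replicate 1, against 289, 314 and 271 bp in control replicates 1, 2 and 3, at percentiles of 49.0 in lead and 71.0, 68.1 and 48.2 in control libraries. With the 1379 best-scored peaks of each library, or without lead replicate 1, it became control-only. Together with the one at 9428086 in ps it was 1 of 2 regions in the 10 genes with a peak in 3 control libraries and at most 1 lead library, 2.86% of their 70 regions against 1.39% over the series. In the other direction, 3 lead libraries and at most 1 control library, the 10 genes had 0 regions against 1.98% over the series.

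The remaining shep regions were less shared. At 5262797 to 5263202 all libraries but control replicate 1 had a peak (231 to 364 bp, 1.55 to 22.6), and at 5277111 to 5277555 all but lead replicate 2 (302 to 445 bp, 25.7 to 53.3). Lead replicate 1 and control replicates 1 and 3 had broad, low-scored peaks at 5160716 to 5161557 (557 to 756 bp, 14.0 to 18.6). Lead replicates 2 and 3 alone shared 5202693 to 5202978 (231 and 242 bp, 34.4 and 25.7). Lead replicate 1 and control replicate 3 shared 5186607 to 5186847 (212 and 225 bp, 23.3 and 50.5). Single libraries had 383 bp at 5167066 to 5167448 in lead replicate 3 (9.11), 211 bp at 5276640 to 5276850 in lead replicate 1 (16.2) and 216 bp at 5187400 to 5187615 in control replicate 3 (18.6).

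The mub gene (3L, 21844788 to 21932702) had the steadiest numbers, 3, 3 and 4 peaks in lead replicates 1, 2 and 3 and 3, 3 and 4 in control replicates 1, 2 and 3. Its peaks were broad and low in rank, with a median width of 355 bp and a median percentile of 27.1, the lowest of the 9 genes. The region at 21916693 to 21917476 was in all 6 libraries, at percentiles of 35.6, 22.6 and 37.9 in lead and 31.8, 27.1 and 40.7 in control replicates 1, 2 and 3, with widths of 586, 595 and 738 bp in lead and 582, 388 and 539 bp in control replicates 1, 2 and 3. A region at 21921725 to 21922516 was also in all 6 (230 to 792 bp, 6.24 to 56.6). A region's presence in every library thus did not require a high score. Beside these, 21915811 to 21916090 had peaks in lead replicates 2 and 3 and control replicate 3 (228 to 261 bp, 42.7 to 61.6), 21850376 to 21850775 in lead replicates 1 and 3 and control replicates 1 and 3 (217 to 336 bp, 2.35 to 18.6), and 21887486 to 21887713 in control replicate 2 alone (228 bp, 27.1).

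The pum gene (3R, 9066343 to 9237682) encodes a repressor of translation that acts with Nanos in the embryo and shapes dendrites, excitability and long-term memory in neurons. It had 7, 3 and 4 peaks in lead replicates 1, 2 and 3, against 3, 4 and 3 in control replicates 1, 2 and 3. Lead replicate 1 was above the other 5 libraries, and the difference of 1.33 (exact permutation p = 0.7) was 0.167 without it and 2.17 without lead replicate 2. Its 3 regions shared by all 6 libraries were the most of any of the 10 genes, and their midpoints lay 36.3, 16.9 and 9.35 kb from the high-coordinate end of the gene. The best scored, 9220522 to 9220961, had percentiles of 84.3, 34.4 and 69.6 in lead and 72.0, 65.2 and 68.0 in control replicates 1, 2 and 3. Its widths were 440, 229 and 268 bp in lead and 263, 294 and 243 bp in control replicates 1, 2 and 3. The others were 9228157 to 9228513 (224 to 357 bp, 27.5 to 84.9) and 9201103 to 9201579 (303 to 467 bp, 12.6 to 40.5). Outside them, control replicate 2 and lead replicate 1 shared 9079961 to 9080194 (225 to 230 bp, 38.5 to 46.8), and no other pum region had a peak in a control library. Lead replicate 1 alone had 223 bp at 9144077 to 9144299 (44.7), 272 bp at 9215738 to 9216009 (35.6) and 330 bp at 9228959 to 9229288 (30.5), and lead replicate 3 alone had 235 bp at 9226793 to 9227027 (20.4).

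Syp (3R, 20756729 to 20810726), the fly Syncrip, regulates temporal identity in neuroblasts and mRNAs at the neuromuscular junction. It had 4, 2 and 4 peaks in lead replicates 1, 2 and 3, against 2, 5 and 4 in control replicates 1, 2 and 3, and the groups overlapped. The difference was -0.333 (exact permutation p = 1) and turned to 0.333 without lead replicate 2 or control replicate 2. It was -0.667 without lead replicate 1 or lead replicate 3, -1.17 without control replicate 1 and -0.167 without control replicate 3. Its region at 20784283 to 20784676 was in all 6 libraries and high in each list, at percentiles of 92.7, 76.0 and 84.1 in lead and 83.2, 79.2 and 88.5 in control replicates 1, 2 and 3. Widths there were 345, 339 and 384 bp in lead and 296, 325 and 344 bp in control replicates 1, 2 and 3. All regions lay in the high-coordinate part of the gene, the lowest of them 27.6 kb from the low end. The other in all 6 libraries, 20805570 to 20806313, varied more in width (265 to 674 bp), with percentiles of 58.2, 44.3 and 54.8 in lead and 31.8, 60.8 and 40.7 in control replicates 1, 2 and 3. The highest of these percentiles was thus in a control library, while the best rank from the top, 756, was in lead replicate 2. A pair of regions 297 bp apart followed, 20801635 to 20802248 in lead replicate 1 and control replicates 2 and 3 (208 to 606 bp, 24.0 to 64.4) and 20802546 to 20802942 in lead replicates 1 and 3 and control replicates 2 and 3 (209 to 377 bp, 21.1 to 52.7). Lead replicate 3 alone had 400 bp at 20793171 to 20793570 (3.23), and control replicate 2 alone had 234 bp at 20798931 to 20799164 (38.5).

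Across the 10 genes, regions of all 6 libraries scored higher than regions of 1 library, as they did over the series. Regions of 1 library had a median percentile of 18.6 in the 10 genes and 23.0 over the series, and regions of all 6 had 66.0 and 74.1. Median widths were 238 and 237 bp for regions of 1 library and 327 and 363 bp for regions of all 6. Of the 21 regions of a single library, 10 were in lead replicate 1, 0 in lead replicate 2 and 5 in lead replicate 3, against 1, 2 and 3 in control replicates 1, 2 and 3. Over the series the same counts were 869, 35 and 254 in lead and 84, 237 and 132 in control replicates 1, 2 and 3, and lead replicate 1, the library with most peaks, had more than any other library in both. Regions of all 6 libraries took 29.4%, 68.2% and 35.7% of the members' peaks in lead replicates 1, 2 and 3 and 55.6%, 38.5% and 40.5% in control replicates 1, 2 and 3. For all peaks these shares were 26.2%, 67.0% and 36.5% in lead and 53.3%, 38.8% and 42.8% in control replicates 1, 2 and 3. The median peak of the 10 genes measured 275 bp and stood at percentile 42.5, against 288 bp and 50.2 for all peaks. Control replicate 1 stood apart, with a median of 296 bp and percentile 54.9 for the 10 genes, while in the other 5 libraries the members' median percentile was 39.3 to 44.7. Counted over their summed length, the 10 genes had 2.93 peaks per 100 kb and library, against 2.33 for the 517 genes at least as long as ps. Those 517 genes were not matched to the members in length, and the members were chosen with earlier results known.

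**Figure D4:**
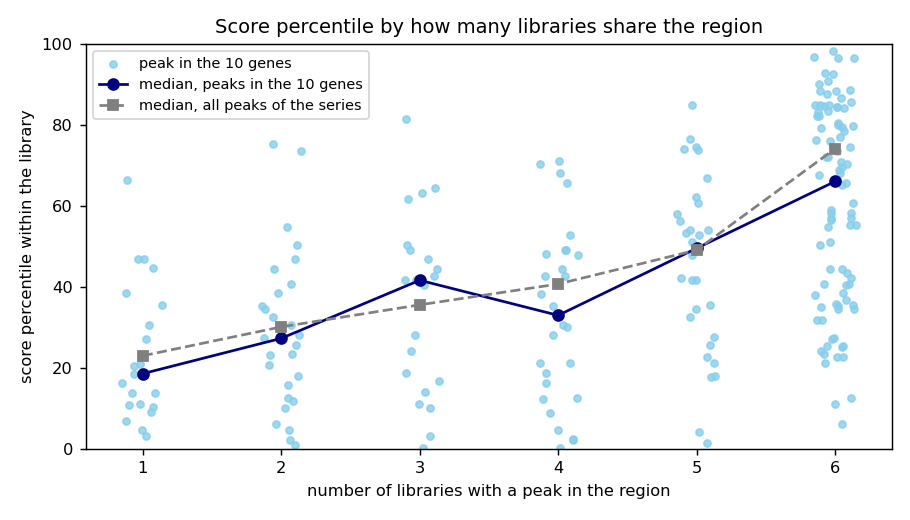
Score percentile within its library of each peak in the 10 genes (points) by the number of libraries with a peak in the region, with the medians of these peaks (solid line) and of all peaks of the series (dashed line). The medians are higher at 6 libraries (66.0 and 74.1) than at 1 library (18.6 and 23.0).

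Other RNA-binding protein genes gave a second view of the class. Of 51 genes matched in the RefSeq table, among them the ELAV family, translation and localisation factors and heterogeneous nuclear ribonucleoproteins, 28 had a peak in at least 1 library and 14 in all 6, where the shares over all genes were 12.2% and 3.69%. These genes are shorter than the members, with a median length of 8.21 kb, but the list also holds long genes such as Rbp6 (179.4 kb). No background of genes of matching length was counted for this list. By role, a peak was found in 5 of 5 genes listed with the ELAV family (elav, fne, Rbp9, Sxl and ssx). In all 6 libraries it was found in 2 of them, while ssx and Sxl had a peak in 2 and 3 libraries. All but Rbp9 lie on X, which held 21.6% to 32.1% of the peaks of each library. No background of X genes was counted. The counts were 12 of 18 genes of translation and mRNA localisation and 11 of 28 genes of splicing and nuclear RNA processing. Over all genes the share was the same 12.2%. Their summed peak numbers were 75, 26 and 41 in lead replicates 1, 2 and 3, against 35, 41 and 45 in control replicates 1, 2 and 3, and the lead libraries again held both the highest and the lowest value. Of the 28, the mean was higher in lead libraries for 13, lower for 4 and equal for 11, beside 1044 higher and 456 lower of the 2173 genes with a peak. None of the 28 had groups that did not overlap. Over all genes with a peak, 0.736% had lead numbers wholly above and 0.046% wholly below the control numbers. At such small shares, finding none among 28 says little about this list. The exact permutation p cannot go below 0.1 here, so no gene could pass 0.05.

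The genes of that list with the most peaks were sm, Rbp6, Imp and cpo. The sm gene, which encodes Smooth, an hnRNP L relative, had 7, 4 and 6 peaks in lead and 5, 7 and 6 in control replicates 1, 2 and 3. Rbp6, a relative of Musashi, had 11, 5 and 4 in lead and 4, 4 and 5 in control replicates 1, 2 and 3, and its difference of 2.33 rested on lead replicate 1 (exact permutation p = 0.7). Imp, which acts against Syp in neuroblast timing, had 9, 1 and 3 in lead and 4, 3 and 5 in control replicates 1, 2 and 3. In cpo (couch potato) the numbers were closer, 6, 4 and 4 in lead and 4, 4 and 3 in control replicates 1, 2 and 3. The sex-determination splicing factor Sxl had 3, 0 and 1 in lead and 0, 1 and 0 in control replicates 1, 2 and 3, and brat, a partner of Pumilio in translational repression, had 4, 0 and 2 in lead and 2, 0 and 1 in control replicates 1, 2 and 3. In each of these 6 genes the groups overlapped.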

How the data were processed

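MeDIP-seq peak lists of 6 adult-head libraries (3 lead, 3 control, grouped by title) were used. Per the submitters' processing notes, cutadapt and Bowtie2 2.1.0 were used with build dm6, and no source used here names the peak caller. Per the labels' protocols, sonicated DNA was adaptor-ligated, and an unprecipitated portion served as input. The authors deposited a separate list for each library, each set against the matching input. The deposited score is a whole number per peak of unstated meaning, used to rank peaks within a list and, in an alternative, for a common minimum across lists, whose scores may not share a scale.

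Repeated rows (452 to 1563 per list) were dropped. Coordinates are 1-based. Overlapping peaks were merged into regions. Gene spans were read from RefSeq (Release 6 assembly). Group means per gene were compared by exact permutation (20 assignments, two-sided) with Benjamini-Hochberg adjustment; functions were tested on simulated data. The members and lists were chosen with earlier results of these data known. Of the other RNA-binding genes, 51 of 52 were matched, and up to 4 with the most peaks and up to 4 with the largest difference were named. Regions named with values in each library are the best scored of each gene among those in all libraries (for bru1 the most shared), and those of 3 libraries of a group and at most 1 of the other. Alternatives were a score of at least 47, equal numbers of peaks (1379), the gene span alone, at least 50% of the peak in the window, merging across 200 bp, leaving out each library, and the replicate block; peaks per 1000 library peaks and shares outside X were added after seeing the data. No genome sequence was used. The work was done in Python (3.11.15) with pandas (2.3.3), scipy (1.17.1), numpy (2.4.6) and, for figures, matplotlib (3.10.9).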

Additional observations from a re-analysis of the deposited data

How the results depend on the processing

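Read depth is unknown, and no test here could pass with 3 libraries against 3. Of 120 alternative values for single genes, 6 turned sign (in mbl, pum and Syp), where no difference had passed a test. A turn could not be counted for bru2, shep and mub, whose main difference was 0. With a score of at least 47 the differences were -1.67 in shep and 1 in mub. The gene span alone, the 50% overlap and the replicate block could not change a gene's difference either. The count of turned signs thus does not measure stability. With a score of at least 47, a minimum set across lists whose scores may not share a scale, 5 regions of the 10 genes were in all 6 libraries, 1 (in Syp) was lead-only, and the difference in member genes with a peak was 0.333. With equal numbers of peaks, 8 regions were in all 6 libraries and 1 (in shep) was control-only; the differences of 4 peaks and 1.42 kb turned to -2 peaks and -0.908 kb. Per 1000 library peaks the difference in peaks was -0.593. In the strict score and equal-number settings fewer peaks were counted; beyond that the cause was not tested. The gene span alone and the 50% overlap gave the main values for the 10 genes. They could not differ, because every peak overlapped the gene span and lay wholly inside the window.

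Leaving out single libraries gave differences of -2.33 to 12.2 peaks, -0.906 to 4.34 kb and -0.104 to -1.6e-05 percentage points; lead-only regions numbered 0 to 3, control-only regions 0 to 1, and regions in every library 15 to 18. With 5 libraries these rules are easier to meet. The 3 lead regions, without lead replicate 2, were at 12233052 and 12273136 in bru1 and 17377070 in mbl, and 2, without lead replicate 1, were at 5202693 in shep and 10536225 in Rbfox1. Control-only regions were at 5184096 in shep without lead replicate 1, and at 9428086 in ps without lead replicate 3. Others were at 17303966 in mbl without control replicate 2, and at 9432359 in ps without control replicate 3.

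The replicate block could not change the differences (4 peaks, 1.42 kb, -0.0593 points). With 3 libraries in each group, the mean of same-number differences equals the difference of the group means. Its exact sign-flip p cannot go below 0.25. The labels do not say that numbers pair the samples, and deviations over all regions correlated at 0.0114, -0.0147 and -0.00577 for equal numbers, against -0.0281 to 0.0310 for unequal numbers.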
